A study of Mus musculus with 145 samples.

Results

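Germline paralogues of housekeeping genes are extra copies of everyday metabolic and ribosomal genes whose use is centred on the male germline. The 7 described here were taken by name, by a rule that uses no measured value, although the list was drawn up with earlier results of these data known: Pgk2, Ldhc, Pdha2, Slc25a31, Rpl10l, Rpl39l and Utp14b, out of 24615 genes in the filtered single-cell table. Each was set beside its somatic parent, which gave 9 parent genes: Pgk1 for Pgk2, Ldha and Ldhb for Ldhc, Pdha1 for Pdha2, Slc25a4 and Slc25a5 for Slc25a31, Rpl10 for Rpl10l, Rpl39 for Rpl39l, and Utp14a for Utp14b. Their levels were followed while cultured spermatogonial stem cells (SSCs), the self-renewing germ cells of the testis, turned into pluripotent cells in culture.

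The SSCs came from postnatal male pups of a cross of C57BL/6 females, which carried an Oct4-EGFP or an EGFP transgene, to DBA/2 males, and were grown with GDNF, bFGF, EGF and ESGRO on feeder fibroblasts. In the untreated setting, 46 libraries of single cells, sampled on 10 days between day 0 and day 27, were made by a modified STRT-seq protocol with unique molecular identifiers (UMIs). A further 3 libraries held germline-derived pluripotent stem cells (gPSCs) at passage 1 and at passage 15, and mouse embryonic stem cells (mESCs), each represented by 1 library. The gPSCs and mESCs grew on feeders in N2B27 medium with 2iL (inhibitors of GSK3 and MEK, with LIF), so cell type and medium cannot be told apart between the lines and SSC1-4. In a separate Trio-seq2 experiment, 8 samples received 5 compounds together (5C: SGC707, vitamin C, EGCG, Daphnetin and TUDCA) and 5 samples received the solvent DMSO. Cells were picked by hand from SSC-like and pluripotent-like colonies, so the number of cells in a cluster reflects the picking.

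The 49 STRT-seq libraries held 4464 cells and between 10833720 and 34609591 UMIs each. Counts were summed per library and deposited cluster wherever a library had at least 5 cells of it. The successful branch runs from the clusters SSC1 to SSC4 (together SSC1-4, sums in 36 libraries) through RPG1 (7 libraries), RPG2 (3), RPG3 (8) and RPG4 (2), where RPG stands for reprogramming. The summed level of 7 SSC markers was 1393 to 2548 CPM (the UMIs of a gene scaled to a common total of UMIs per library) in SSC1-4 and 325 to 686 CPM in RPG3, while 6 pluripotency markers summed to 98.5 to 245 CPM and 1791 to 2706 CPM. RPG4 held less of the pluripotency markers (314 to 409 CPM), and the clusters named Early-pluripotent (117 to 239 CPM) lay within the SSC1-4 range. In the clusters named Neural 1 and Neural 2 the 4 neural markers summed to 0 to 41.3 CPM, against 0 to 62.9 CPM in the clusters SSC1 to SSC4, and the Meiotic clusters held 885 to 1064 CPM of the meiotic markers against 551 to 1355 CPM in SSC1-4. All 96 cell barcodes were used by more than 1 library, as plate barcodes are, and none of the 36 SSC1-4 sums duplicated another.

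The clusters were defined by the study on these same transcriptomes, so a test between clusters measures how reproducibly libraries separate along a line already drawn. The comparisons with SSC1-4 share those 36 sums. Nothing in the labels states that libraries of 1 day came from separate cultures, and the p-values then measure the spread between libraries.

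Most of these paralogues arose by retroposition, in which a spliced transcript is copied back into the genome without introns. Several parents lie on the X chromosome, which is silenced in male germ cells during meiosis, and an autosomal copy can supply the product then. The products serve glycolysis (Pgk2, Ldhc), entry of pyruvate into the citric acid cycle (Pdha2), exchange of ATP and ADP across the inner mitochondrial membrane (Slc25a31), the large ribosomal subunit (Rpl10l, Rpl39l) and processing of ribosomal RNA (Utp14b).

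In the mouse build GRCm38, none of the 7 paralogues lay on the X chromosome, against 6 of the 9 parents (Pgk1, Pdha1, Slc25a5, Rpl10, Rpl39 and Utp14a). Pgk2 (chr17:40207015-40208640), Pdha2 (chr3:141210004-141212355) and Rpl10l (chr12:66283379-66284401), all on the minus strand, consisted of 1 exon. Rpl39l (chr16:10170226-10174911, plus strand) and Utp14b (chr1:78658038-78671512, plus strand) had 3 exons with a single coding exon. Slc25a31 (chr3:40708855-40726096, plus strand) had 6 coding exons. Ldhc (chr7:46861203-46878142, plus strand) had 7 coding exons and followed Ldha (chr7:46841475-46855627) on the same strand. Transcript identity between paralogue and parent ran from 66.0% (Ldhc and Ldhb) to 84.2% (Rpl10l and Rpl10) over the aligned bases. The longest run of identical bases was 38 for Rpl39l and Rpl39, 30 for Utp14b and Utp14a, and between 14 and 23 for the other pairs, so a short read inside the Rpl39l run could be assigned to either gene.

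The promoters of 4 paralogues are shown because these genes parted ways in the data: Slc25a31 and Pdha2 were at 3.63 CPM or less in the pluripotent lines, while Rpl10l and Rpl39l were at 86.5 CPM or more. The sequences are from RefSeq (GRCm38.p6), 5′ to 3′ on the strand of the gene, and end just before the first annotated base of the gene. Capitals mark the 2 motifs searched on both strands that occur in them, TCCCGC (the core of E2F6-type sites) and CACGTG (the E-box bound by MGA with MAX).
Slc25a31, chr3:40708621-40708854, plus strand: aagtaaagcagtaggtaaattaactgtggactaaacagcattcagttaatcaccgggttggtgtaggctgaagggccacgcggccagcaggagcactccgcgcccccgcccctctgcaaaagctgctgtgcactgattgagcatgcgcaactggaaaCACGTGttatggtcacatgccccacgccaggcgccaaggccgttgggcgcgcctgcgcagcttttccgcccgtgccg
Pdha2, chr3:141212356-141212605, minus strand: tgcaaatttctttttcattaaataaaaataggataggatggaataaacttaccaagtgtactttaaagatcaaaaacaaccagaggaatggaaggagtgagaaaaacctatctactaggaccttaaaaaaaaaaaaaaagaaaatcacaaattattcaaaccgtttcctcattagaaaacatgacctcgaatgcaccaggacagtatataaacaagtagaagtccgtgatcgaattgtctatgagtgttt
Rpl10l, chr12:66284402-66284651, minus strand: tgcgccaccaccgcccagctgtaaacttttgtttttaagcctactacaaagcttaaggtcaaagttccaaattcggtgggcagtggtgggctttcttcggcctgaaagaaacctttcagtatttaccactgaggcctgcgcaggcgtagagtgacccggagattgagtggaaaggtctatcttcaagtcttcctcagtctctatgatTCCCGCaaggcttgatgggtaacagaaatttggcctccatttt
Rpl39l, chr16:10169978-10170225, plus strand: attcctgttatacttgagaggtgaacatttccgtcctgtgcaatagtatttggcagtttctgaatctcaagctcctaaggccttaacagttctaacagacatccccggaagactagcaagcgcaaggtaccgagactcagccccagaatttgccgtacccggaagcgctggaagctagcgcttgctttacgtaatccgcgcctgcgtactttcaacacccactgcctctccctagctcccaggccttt
As background, E2F6 and MGA are parts of a Polycomb complex that keeps germline genes silent in embryonic and pluripotent cells. The Slc25a31 window held CACGTG 93 bases before the RefSeq start and TCCCGC after the start, the Rpl10l window held TCCCGC 43 bases before it, and those of Pdha2 and Rpl39l held neither. Over all 7 paralogues, a TCCCGC match was present in the 300-base windows (250 before and 50 after the start) of Slc25a31, Rpl10l and Utp14b, and a CACGTG match in those of Slc25a31 and Utp14b. Of 32851 promoters of the same length, 20.0% held TCCCGC and 7.15% held CACGTG. Another motif, TGACGT, the core of sites bound by CREB-family factors, was found 61 and 47 bases before the start of Ldhc and in 7.51% of promoters. CpG dinucleotides numbered 22 for Slc25a31, 13 for Rpl10l, 17 for Rpl39l and 4 for Pdha2, against a median of 7 over all promoters. Utp14b, whose first exon lies near that of its host gene Acsl3, had 40, a number reached by 3.91% of promoters.

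In SSC1-4, 6 of the 7 paralogues had a mean of at least 9.01 CPM and 2 of them were abundant. Rpl39l, a copy of a small protein of the large ribosomal subunit, stood at 492 ± 126 CPM (mean ± SD, n = 36 libraries, scaled by TMM) and ranged from 307 to 1036. Slc25a31, the germline ADP/ATP carrier, stood at 483 ± 65.5 CPM (349 to 614). Rpl10l followed at 166 ± 33.1 CPM. Ldhc, the testis lactate dehydrogenase subunit, and Pdha2, the testis form of the pyruvate dehydrogenase E1 alpha subunit, were near each other at 34.1 ± 11.7 and 33.9 ± 13 CPM. Utp14b was low, at 9.01 ± 5.34 CPM. CPM of STRT-seq counts 1 tag per molecule and is not divided by length.

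Pgk2, the germline phosphoglycerate kinase and a gene known for its use during and after meiosis, was almost absent. The 36 SSC1-4 sums together held 114 Pgk2 UMIs, found in 6 libraries with at most 39 each. The Fibroblast sums held 71 UMIs (at most 3.12 CPM in a library), the Neural sums 34, the Meiotic sums 7, RPG1 16 in 1 library, and RPG2, RPG3, RPG4, Early-pluripotent and the 3 lines none. In the lines, a count of 0 allows up to 0.214 CPM in gPSCs at passage 1, 0.277 CPM at passage 15 and 0.203 CPM in mESCs, counting error only. A panel of 6 post-meiotic germ cell markers summed to at most 19.2 CPM in SSC1-4 and 14.7 CPM in the Meiotic libraries.

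**Figure D1:**
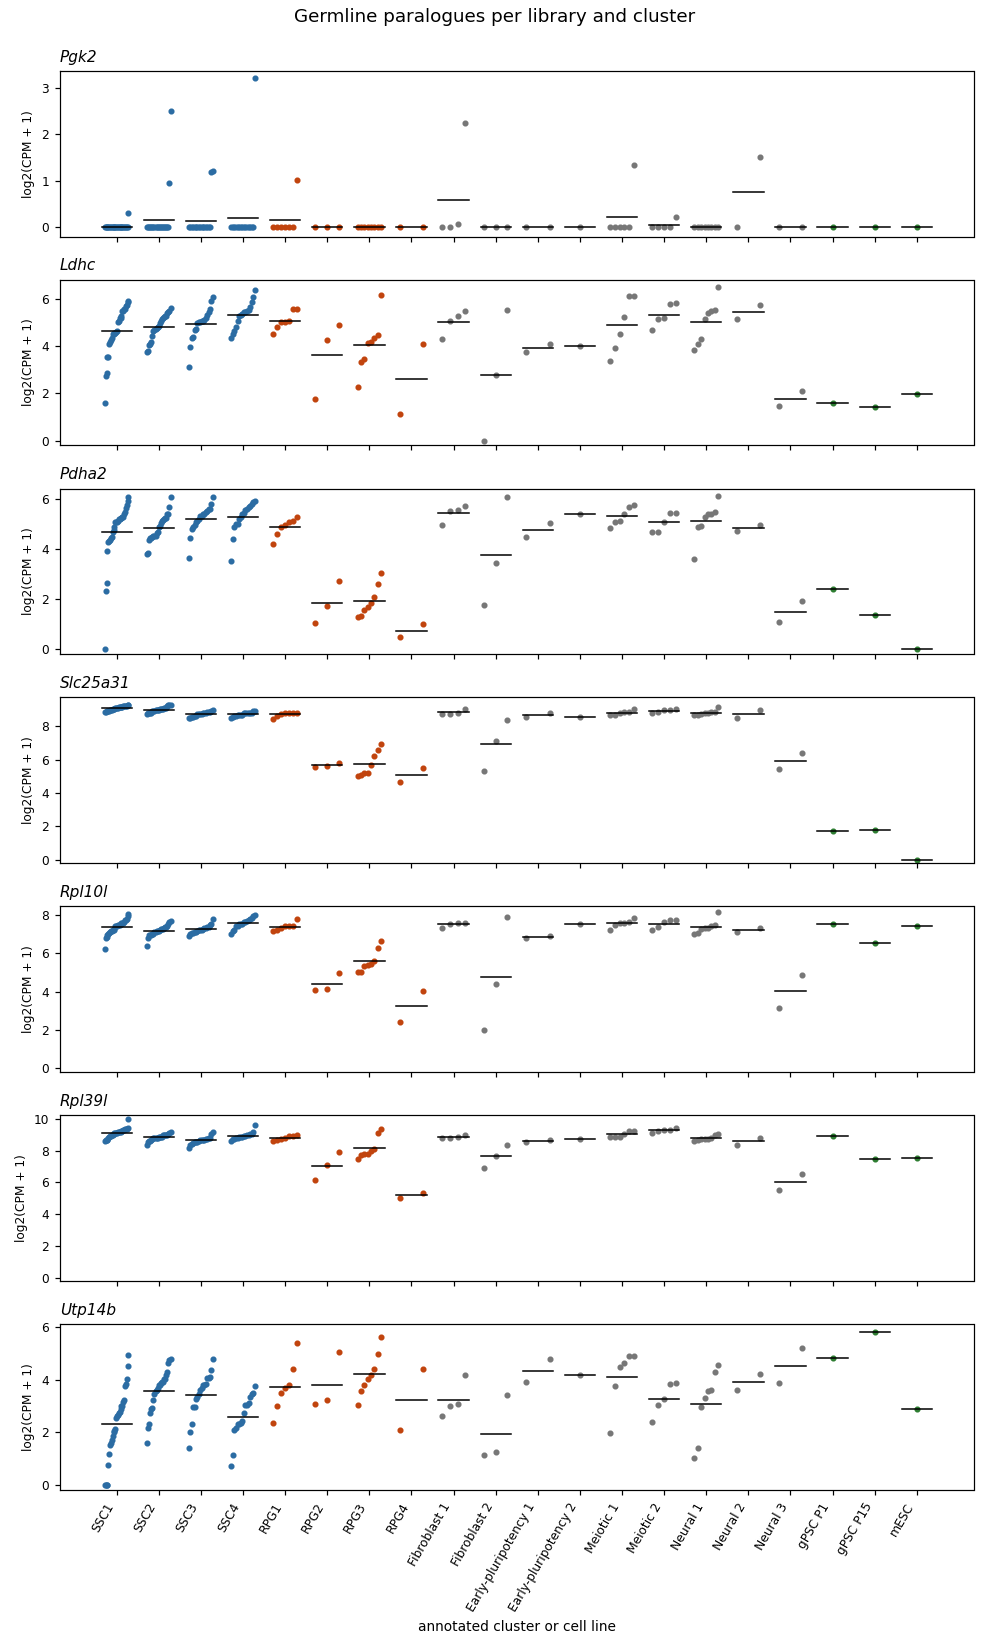
Level of each paralogue (log2 of CPM + 1, vertical axis) in every library, by cluster and line (horizontal axis). Each point is 1 library and each line the mean, and for Slc25a31 the RPG2, RPG3 and RPG4 points (at most 118 CPM) lie below every SSC1-4 library (at least 349 CPM).

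The plot of levels by cluster shows 3 patterns: Slc25a31, Pdha2 and, less evenly, Ldhc were lower from RPG2 onward and in the lines, Rpl10l and Rpl39l were lower in RPG2 to RPG4 and remained present in the lines, and Utp14b was not called lower in RPG2 to RPG4. In RPG1, the first reprogramming cluster, Slc25a31 (419 CPM) and Pdha2 (28.7 CPM) lay below the means of all 4 SSC clusters. The lowest SSC means were close by, at 421 CPM for Slc25a31 (SSC4) and 29.8 CPM for Pdha2 (SSC2). None of the 6 members tested was called in RPG1 in edgeR's quasi-likelihood test against SSC1-4 (adjusted p below 0.05), where 2.4% of 16472 genes were called higher and 3.02% lower. At an unadjusted p below 0.05, 2 members passed in RPG1 (Slc25a31 at −0.18 ± 0.08 and Utp14b at 0.78 ± 0.33), and DESeq2 called 0. Of 17536 genes, DESeq2 called 535 higher and 889 lower in RPG1. Shares of all genes at an unadjusted p were not counted, here or below.

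Slc25a31 carried the clearest loss. It was present at 54.6 CPM in the day 12 library of RPG2 and at 47.3 and 45.4 CPM in the day 14 libraries. In the 8 RPG3 libraries it had a lowest value of 30.1, a median of 42.5 and a highest of 118 CPM, and in the pair of RPG4 libraries 43.5 and 23 CPM. All 13 of these sums lay below the lowest of the 36 SSC1-4 sums, so the groups did not overlap. The fall was 9.03-fold in RPG2 (log2 fold change −3.17 ± 0.16 SE, adjusted p = 4.67e-22, edgeR), 8.32-fold in RPG3 (−3.06 ± 0.17, adjusted p = 1.53e-22, edgeR) and 14.4-fold in RPG4 (−3.85 ± 0.23, adjusted p = 1.06e-18, edgeR). In RPG1 it was still at 425 ± 37.6 CPM (n = 7).

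Pdha2 was lost to a similar degree. The RPG2 libraries held 5.57, 1.07 and 2.22 CPM, which are 20, 4 and 12 UMIs, and RPG3 ranged from 1.40 to 7.25 CPM with a median of 2.35. RPG4 held 1 and 5 UMIs. RPG2 and RPG3 each overlapped the lowest SSC1-4 library (4.88 CPM), and RPG4 did not. Pdha2 fell 10.8-fold in RPG2 (log2 −3.43 ± 0.48, adjusted p = 5.28e-08, edgeR) and 11.3-fold in RPG3 (−3.50 ± 0.30, adjusted p = 7.54e-15). In RPG4 the fitted log2 fold change was −5.46 ± 0.67 (adjusted p = 5.28e-09).

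Rpl10l, an intronless copy of ribosomal protein L10, fell 7.29-fold in RPG2 (log2 −2.87 ± 0.25, adjusted p = 5.69e-14, edgeR), 3.26-fold in RPG3 (−1.70 ± 0.16, adjusted p = 1.61e-13) and 18.1-fold in RPG4 (−4.18 ± 0.36, adjusted p = 2.17e-13). Its RPG2 values were 15.6, 16.7 and 29.9 CPM and its RPG4 values 15 and 4.21 CPM, all below the lowest SSC1-4 library at 68.1 CPM. In RPG3 it ran from 30.5 to 97.4 CPM with a median of 41.0, and the upper libraries overlapped SSC1-4.

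Rpl39l fell 3.09-fold in RPG2 (log2 −1.63 ± 0.24, adjusted p = 1.43e-07, edgeR) and 14-fold in RPG4 (−3.80 ± 0.32, adjusted p = 5.17e-14), and only 1.54-fold in RPG3 (−0.63 ± 0.16, adjusted p = 0.000693). RPG2 held 135, 70.4 and 231 CPM and RPG4 39.2 and 29.9 CPM, all below the SSC1-4 minimum of 307. The RPG3 libraries came from both batches that the study labels. In batch B1 the 5 libraries held 172 to 269 CPM and Rpl39l fell by 1.12 on the log2 scale, while in batch B2 the 3 libraries held 554, 212 and 647 CPM and the change was 0.027 (adjusted p = 0.943, edgeR). The B2 library at 212 CPM lay within the B1 range, and the difference between batches was not tested.

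Ldhc gave the least even values. RPG2 held 28.1, 2.42 and 17.7 CPM, RPG4 15.4 and 1.15 CPM, and RPG3 ran from 3.83 to 68.5 CPM with a median of 16.3. These overlapped the SSC1-4 range of 9.38 to 58.6 CPM in every cluster. Ldhc fell 1.94-fold in RPG2 (log2 −0.96 ± 0.39, adjusted p = 0.0444, edgeR), 1.73-fold in RPG3 (−0.79 ± 0.27, adjusted p = 0.0109) and 4.29-fold in RPG4 (−2.10 ± 0.55, adjusted p = 0.00221). The RPG2 call was lost with batch as a covariate (−0.60, adjusted p = 0.259) and without the day 14 replicate 5 library (−0.56, adjusted p = 0.280) or the day 14 replicate 6 library (−1.15, adjusted p = 0.0655). On the 2 libraries that held both classes it was lost too. The change there was −1.92 with the library as a block (adjusted p = 0.0881, edgeR) and −1.41 without it (adjusted p = 0.307). With sums per batch and day the call was lost in RPG2 (−0.71, adjusted p = 0.0852) and in RPG3 (−0.33, adjusted p = 0.463). In RPG4 it was lost without the day 20 replicate 2 library (−1.13, adjusted p = 0.210), which leaves 1 RPG4 library, assumed to vary like those of SSC1-4. In RPG3, the log2 change was −1.09 in batch B1 and 0.012 in batch B2. The library at 68.5 CPM, day 12 replicate 2, is 1 of the 3 RPG3 libraries of B2.

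Utp14b moved the other way. It rose 2.21-fold in RPG3 (log2 1.14 ± 0.30, adjusted p = 0.0011, edgeR), where its libraries ranged from 7.23 to 48.0 CPM with a median of 16. Within batches the call was lost (0.56, adjusted p = 0.167 in B1; 1.6, adjusted p = 0.0664 in B2). Utp14b lies inside the gene Acsl3 on the same strand, with 244 of its 7393 exon bases in an Acsl3 exon and no coding base among them. Acsl3, an acyl-CoA synthetase, fell by 0.62 ± 0.13 in RPG3 (adjusted p = 7.07e-05, edgeR), opposite in direction.

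Counted together, 5 of the 7 members were called lower in RPG2 (21% of 17985 genes were lower), 5 of the 6 tested in RPG3 (33.9% of 16392) and 5 of 7 in RPG4 (17.6% of 18790). In the higher direction, the background was 21.8% in RPG2, where no member was called, 28% in RPG3, where Utp14b was, and 14.6% in RPG4, where none was. The median log2 fold change of the members tested was −2.87 in RPG2, −1.25 in RPG3 and −3.85 in RPG4, against −0.27, −0.15 and −0.42 over all genes tested. Among RPG1 to RPG4, Pgk2 passed the filter in RPG2 and RPG4 only, on the few SSC1-4 UMIs above, and was not called. It had no UMI in either cluster. The medians for RPG2 and RPG4 thus include a gene that is not in the RPG3 median. RPG2 lay wholly in batch B2 and RPG4 in batch B1, and these clusters rest on 44 and 21 cells.

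**Figure D2:**
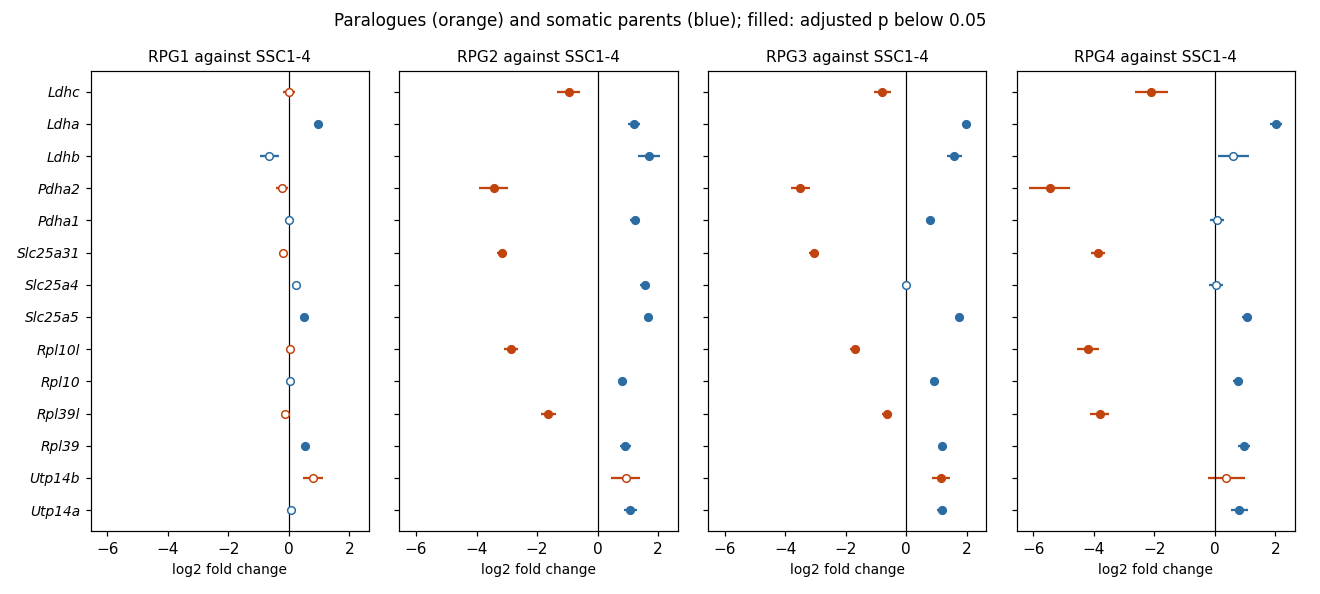
Log2 fold change against SSC1-4 (horizontal axis) with its standard error in RPG1 to RPG4, paralogues in orange and parents in blue, filled where the adjusted p was below 0.05. In RPG3, Slc25a31 lies at −3.06 and its parent Slc25a5 at 1.76.

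The parents mostly ran the opposite course to the members called lower, as the plot of fold changes shows. All 9 rose in RPG2, 8 of 9 in RPG3 and 6 of 9 in RPG4, where 21.8, 28 and 14.6% of all genes were called higher. In RPG1, where no paralogue was called, 4 of 9 parents were already higher (2.4% of all genes): Pgk1 (log2 1.42 ± 0.31, adjusted p = 0.00334, edgeR), Ldha (0.96 ± 0.13, adjusted p = 8.78e-07), Slc25a5 (0.50 ± 0.10, adjusted p = 0.00122) and Rpl39 (0.53 ± 0.12, adjusted p = 0.00393). These 4 calls were lost in batch B2 alone, at log2 changes of 0.76 to 1.33, and on the 2 libraries that held both classes, at 0.048 to 0.49 with or without the library as a block. The Slc25a5 call was also lost in batch B1 alone (0.35, adjusted p = 0.0676, edgeR).

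Pgk1, the housekeeping phosphoglycerate kinase, moved most of the parents. It rose from 7.12 ± 4.35 CPM in SSC1-4 to 147 ± 58.9 CPM in RPG3 (69.0 to 236, n = 8), a 19.9-fold change (adjusted p = 8.11e-23, edgeR), and stood at 246 and 305 CPM in RPG4. With Pgk2 nearly absent, few UMIs of either phosphoglycerate kinase gene were counted in SSC1-4. Without TMM scaling, the mESC library held 40.9 CPM of Pgk1 beside 715 CPM of Gapdh. Whether Pgk1 reads were lost in the assignment to genes was not tested. Slc25a5, an ADP/ATP carrier of somatic cells, rose from 307 ± 52.2 to 1035 ± 162 CPM in RPG3, 3.39-fold, with no overlap between groups (181 to 385 against 861 to 1302 CPM). Ldha, the lactate dehydrogenase subunit of glycolytic tissues, rose from 319 ± 84.2 to 1235 ± 216 CPM. Slc25a4, the carrier of heart and muscle, rose in RPG2 (1.56 ± 0.16) but not in RPG3 (−0.02 ± 0.12, adjusted p = 0.915, edgeR).

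Genes whose products work beside these enzymes gave a mixed picture. Of 11 such partners, 7 rose and 1 fell in RPG3 (28% and 33.9% of all genes). The outer-membrane channels Vdac1 (log2 2.88 ± 0.17) and Vdac2 (1.48 ± 0.09) and the glycolytic enzymes Pgam1, Eno1, Gapdh and Pkm (0.98 to 1.59) rose. Within the pyruvate dehydrogenase complex, Pdhb, the partner of the alpha subunit, rose by 0.72 ± 0.10, Pdhx fell by 0.51 ± 0.12, and Dlat and Dld were not called. The partners gave 8 higher and 1 lower in RPG2, 6 and 1 in RPG4, and 2 and 0 in RPG1, beside the shares of all genes given above.

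Each pair was also read as the paralogue's share of the UMIs of paralogue and parents together, a quantity that does not depend on library scaling. The share of the carriers held by Slc25a31 was 42.6% ± 6.51 in SSC1-4 (30.9 to 66.9), 33.6% ± 4.07 in RPG1, 2.58% ± 0.465 in RPG2, 4.06% ± 2.18 in RPG3 and 2.39 and 4.12% in RPG4. The ranges of RPG2, RPG3 and RPG4 (1.92 to 7.52%) lay below that of SSC1-4. Pdha2 went from 29.3% ± 9.08 to 1.62% in RPG2, 2.19% in RPG3 and 0.827% in RPG4. For the ribosomal pairs, Rpl10l went from 27.1% ± 5.18 to 2.85, 5.53 and 1.2%, and Rpl39l from 53.4% ± 8.65 to 16.7, 23.6 and 4.07%. Rpl39l thus supplied about as many UMIs as its parent in the SSCs, and in the Meiotic libraries it supplied 68.9% ± 1.85 (66.0 to 71.3, n = 6). Ldhc held 7.32% in SSC1-4, 1.65% in RPG2, 1.56% in RPG3 (median 0.881%) and 0.507% in RPG4. In RPG3 the day 12 replicate 2 library was at 7.11% and the other 7 between 0.191 and 1.18%. Utp14b did not gain in share. It held 10.2% ± 7.25 in SSC1-4 and 7.92, 8.82 and 6.1% in RPG2, RPG3 and RPG4. Its parent Utp14a stood at 199 CPM in RPG3, against cluster means of 78.5 to 108 CPM in SSC1 to SSC4.

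**Figure D3:**
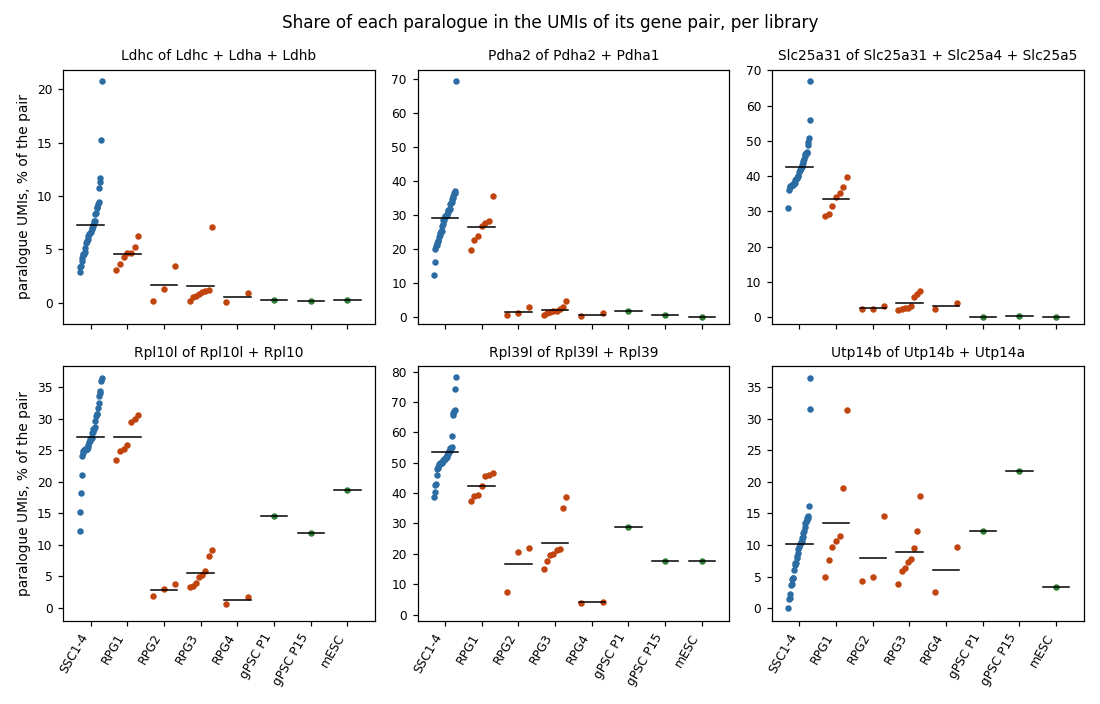
Share of each pair's UMIs that came from the germline paralogue (percent, vertical axis), by cluster and line, with 1 point per library and a line at the mean. Slc25a31 moves from a mean of 42.6% in SSC1-4 to between 1.92 and 7.52% in RPG2 to RPG4.

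In the established pluripotent lines the metabolic and ribosomal paralogues separated. Each line is 1 library, so the values carry a 95% Poisson interval for counting error and no test. Slc25a31 was at 1.92 CPM (1.27 to 2.80) in gPSCs at passage 1, at 2.31 CPM (1.49 to 3.41) at passage 15, and at 0 in mESCs, which allows up to 0.203 CPM. Against the mean of the SSC1, SSC2, SSC3 and SSC4 cluster means, without TMM scaling, that was 251-fold lower (173 to 381), 209-fold lower (142 to 324) and at least 2385-fold lower. Pdha2 was at 3.63 CPM (2.71 to 4.78) and 1.48 CPM in the gPSC libraries and at 0 in mESCs, which was 9.85-fold, 24.2-fold and at least 177-fold below SSC1-4. Ldhc was at 1.71, 1.57 and 2.63 CPM, between 12.9-fold and 21.7-fold below SSC1-4. The gPSC libraries thus kept 27 and 25 Slc25a31 UMIs where the mESC library had none, with 1 library of each.

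Rpl10l and Rpl39l were present in the same libraries. Rpl10l was at 154 CPM (147 to 160) in gPSCs at passage 1, 86.5 CPM (81.0 to 92.2) at passage 15 and 154 CPM (148 to 161) in mESCs, which set SSC1-4 only 1.10, 1.96 and 1.10 times higher. These values exceed every RPG2 and RPG4 sum. Its share of the pair was 14.6% (Wilson 95% interval 14 to 15.1), 11.8% and 18.8%. Rpl39l was at 410 CPM (399 to 421), 168 CPM (160 to 176) and 170 CPM (163 to 177), with shares of 28.9%, 17.7% and 17.8%. SSC1-4 was 1.19 times higher than gPSCs at passage 1, and 2.90 and 2.87 times higher than gPSCs at passage 15 and mESCs, whose Rpl39l levels lay within the RPG2 range. Utp14b was at 23.5 CPM (21 to 26.2) and 52.4 CPM (48.2 to 56.9) in the gPSC libraries and 5.74 CPM (4.59 to 7.10) in mESCs, so that the gPSC values lay above the mean of the SSC1 to SSC4 cluster means (9.37 CPM without TMM) and the mESC value below it.

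Single cells gave the same ordering once every cell was thinned to 50000 UMIs. A Slc25a31 UMI was seen in 665 of 665 SSC1 cells, in 201 of 254 RPG3 cells (79.1%), in 4 of 46 gPSCs at passage 1 (8.70%), in 3 of 31 at passage 15 (9.68%) and in 0 of 43 mESCs, which allows a share of cells with a UMI at this depth of up to 6.98%. Pdha2 was seen in 51.4% of SSC1 cells and in 23 of 254 RPG3 cells (9.06%). Rpl10l was seen in 93.5% of SSC1 cells, 57.9% of RPG3 cells and 93.0% of mESCs. Unthinned, the RPG3 shares were 95.4% for Slc25a31, 36.4% for Pdha2 and 90.8% for Rpl10l. Thinning left out 153 SSC1 cells, 7 RPG3 cells and 2 mESCs that had fewer UMIs. The mESCs formed a library of their own, so their share does not measure UMIs passed between cells of a mixed library, and the part of such UMIs in the RPG3 shares was not tested.

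**Figure D4:**
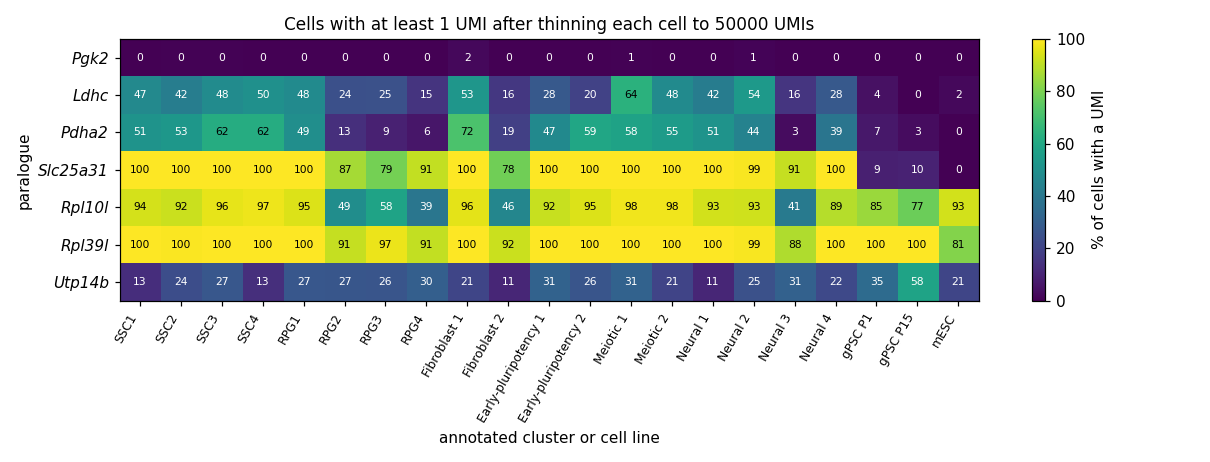
Share of cells (percent, colour scale) with at least 1 UMI of each paralogue (rows) in each cluster and line (columns) after thinning every cell to 50000 UMIs. Slc25a31 goes from 100% in SSC1 to 79.1% in RPG3 and 0 in mESCs, while Rpl10l stands at 93.0% in mESCs.

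Outside the successful branch, few genes were called, members or not. No member was called in the Fibroblast (6 tested), Meiotic (6) or Neural (6) classes against SSC1-4, where 0.541, 1.27 and 3.78% of genes were lower and 4.58, 1.17 and 4.03% higher. At an unadjusted p below 0.05, 1, 1 and 2 members passed in these classes, and DESeq2 called 0 in each. Among all genes, DESeq2 called 904 higher and 241 lower of 16934 in Fibroblast. It called 344 and 706 of 15304 in Meiotic and 1044 and 739 of 16236 in Neural. In Early-pluripotent, Ldhc fell 2.37-fold (log2 −1.24 ± 0.34, adjusted p = 0.0353, edgeR; 14.8, 16 and 12.8 CPM) where 1.11% of genes were lower and 1.27% higher, and the call was lost without any 1 of the 3 libraries. The Meiotic libraries, all of day 16, held Rpl39l at 605 ± 38.5 CPM (552 to 648) against 492 ± 126 in SSC1-4 (log2 0.30 ± 0.13, adjusted p = 0.20, edgeR), while its parent Rpl39 fell by 0.64 ± 0.14 (adjusted p = 0.00574).

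Within those classes some clusters stood apart. Neural 3, with sums in 2 libraries of day 27, held Slc25a31 at 41.7 and 84.7 CPM, Rpl10l at 7.85 and 28.2 CPM and Rpl39l at 45.6 and 92.1 CPM, all below the 8 Neural 1 libraries (409 to 559 CPM of Slc25a31). Its neural markers summed to 308 to 339 CPM, its fibroblast markers to 1052 to 1115 CPM and its SSC markers to 207 to 406 CPM. Its 4 markers of Sertoli cells, which are somatic cells of the testis, summed to 261 to 383 CPM. In the clusters SSC1 to SSC4 they summed to at most 118 CPM. Fibroblast 2 held Slc25a31 at 39.0, 327 and 138 CPM with fibroblast markers of 2011 to 5625 CPM, against 418 to 527 CPM of Slc25a31 and 203 to 363 CPM of fibroblast markers in Fibroblast 1. The part of feeder cell RNA in these values was not tested, nor was that of testis somatic cells.

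Among the clusters of the successful branch, ordered by mean level, Slc25a31 ran from SSC1 (541 ± 48.5 CPM, n = 28) through SSC2 (513 ± 55.6, n = 23) to SSC3 (423 ± 41.9, n = 18) and SSC4 (421 ± 35.9, n = 16), followed by RPG1 (419 ± 35.9), RPG3, RPG2 and RPG4. Both Meiotic clusters, Fibroblast 1, Neural 1 and Neural 2 (436 to 490 CPM) lay between SSC2 and SSC3, the Early-pluripotent clusters, Fibroblast 2 and Neural 3 between RPG1 and RPG3, and the 3 lines below RPG4. Among SSC1 to SSC4 and RPG1, neighbouring means differed by less than the SD of the libraries except between SSC2 and SSC3, and the means of Neural 3, RPG3 and RPG2 differed by less than the SD in RPG3 (33.1 CPM). Within SSC1-4, Slc25a31 and Rpl39l were lower at later days. With batch as a covariate, the log2 level changed by −0.02 ± 0.01 per day for Slc25a31 (adjusted p = 0.0306, edgeR; 0.078 with DESeq2 size factors) and by −0.04 ± 0.01 per day for Rpl39l (adjusted p = 0.00376), where 2.58% of 17882 genes were lower and 0.878% higher. Slc25a31 stood at 595 CPM on day 0 and at 419, 430 and 463 CPM on day 27, and Rpl39l at 633 CPM and at 342, 347 and 307 CPM. No other member was called by day. SSC1-4 pools clusters of different Slc25a31 level, and the part of a changing mix of clusters over the days was not tested.

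The genes with patterns most like each paralogue were taken over 20 groups (17 clusters and 3 lines), by Pearson's r of mean log2(CPM + 1), among 15048 genes that reached 5 CPM. The groups share libraries, and the correlations are a description. Slc25a31 was closest to Nxf2 (r = 0.997), Mael (0.994) and Tex101 (0.993), all known from germ cells. Pdha2 was closest to Ak9 (0.981), Ccdc152 (0.974) and Cox7b2 (0.969). Rpl10l and Rpl39l both had the proteasome paralogue Psma8 among their 3 closest genes (0.928 and 0.929), and Rpl39l was closest to the testis cytochrome c, Cyct (0.953). Among the members, Slc25a31 and Pdha2 gave r = 0.88, and Rpl10l and Rpl39l 0.90. Between the metabolic and the ribosomal members, Slc25a31 gave 0.28 with Rpl10l and 0.48 with Rpl39l, Pdha2 0.65 and 0.76, and Ldhc 0.38 and 0.58.

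Of a wider list of 26 further germline paralogues, 14 of the 21 tested fell and 2 rose in RPG2, where 21% of all genes were lower and 21.8% higher. In RPG3, 13 of 19 fell and 3 rose (33.9% and 28% of all genes). In RPG4, 8 of 22 fell, 3 rose and 11 were not called (17.6% and 14.6%). In RPG1, edgeR called none of 19, while 3 passed an unadjusted p of 0.05 and DESeq2 called 1. Of 17536 genes in all, DESeq2 called 535 higher and 889 lower there. The median log2 fold change was −2.49, −1.69 and −3.69 in RPG2, RPG3 and RPG4, against −0.27, −0.15 and −0.42 over all genes tested. Outside the successful branch, 5 of 18 were lower and none higher in Neural (3.78% and 4.03% of all genes), 2 of 20 lower and 1 higher in Fibroblast (0.541% and 4.58%), and edgeR called none in Meiotic or Early-pluripotent, where 2 and 0 passed an unadjusted p of 0.05 and DESeq2 called 0. Among all genes, DESeq2 called 344 higher and 706 lower of 15304 in Meiotic, and 356 and 828 of 16895 in Early-pluripotent. The alpha tubulins Tuba3b (−2.74 ± 0.21 in RPG3) and Tuba3a (−1.69 ± 0.12), the cytochrome oxidase subunit Cox8c (−3.18 ± 0.29) and the heat shock gene Hspa2 (−2.31 ± 0.31) fell. Psma8 and Cyct were lower in RPG4 (−4.49 ± 0.45 and −4.22 ± 0.34) and present in the lines at 51.5, 35.6 and 62.9 CPM and at 81.6, 82.6 and 71.1 CPM. Cox6b2, another cytochrome oxidase subunit, went the other way, rising by 2.79 ± 0.29 in RPG2 and 2.38 ± 0.22 in RPG3, with 173, 250 and 232 CPM in the lines. Aldoart1 (2.49 ± 0.54 in RPG3) and Rbmxl2 (1.28 ± 0.35) also rose, and both are retrocopies. Whether reads of a parent gene were assigned to these or to other retrocopies, such as Rpl10l, was not tested.

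The Trio-seq2 experiment followed reprogramming with the 5C compounds and with DMSO. Its cells were assigned to classes by the study with a predictor trained on the STRT-seq clusters, and covered 724 5C cells of days 12 to 16 and 365 DMSO cells of days 20 and 24, with 8 day 0 cells. Arm and day therefore cannot be told apart. The filtered tables hold 17042 and 16052 genes, Pgk2 not among them, and SSC1-4 sums were available from 8 5C and 3 DMSO samples and RPG3 sums from 6 and 2.

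In SSC1-4 cells, 3 of the 6 members tested were lower with 5C (10.6% of 12260 genes were lower and 10.7% higher). Ldhc was at 78.7, 47.0 and 71.8 CPM in the DMSO samples and between 0 and 23.1 CPM (median 9.11) in the 5C samples, with no overlap. This was a 6.83-fold fall (log2 −2.77 ± 0.49, adjusted p = 0.00022, edgeR). Slc25a31 was at 567, 552 and 601 CPM against 388 to 460 CPM (median 425), also without overlap, a 1.35-fold fall (adjusted p = 0.00629). Rpl10l was at 168, 186 and 178 CPM against 82.7 to 155 CPM, a 1.44-fold fall (adjusted p = 0.0341), and this call was lost without any 1 of the DMSO samples, without 5C replicate 2, 7 or 8, and with the replicate block, at log2 changes of −0.58 to −0.47. Over all cells, Ldhc alone was called, 4.2-fold lower (log2 −2.07 ± 0.41, adjusted p = 0.00483; background 7.31% lower and 7.52% higher), and the call was lost with the replicate block (−2.23, adjusted p = 0.102). The block joins the arms by sample number alone and keeps only numbers found in both. It cannot decide how firm a call is, since the numbers did not pair the samples. Its parents Ldha and Ldhb were lower with 5C within SSC1-4 as well (−0.54 ± 0.13 and −1.34 ± 0.42), while Rpl39 and Rpl10 were higher (1.18 ± 0.23 and 0.39 ± 0.12). The Rpl39l share of its pair was 47.8% (40.4 to 56.4) with 5C and 72.4% (61.0 to 78.5) with DMSO in SSC1-4, and the Rpl10l share 15% (9.99 to 18.8) and 25.3% (23 to 29.5), without overlap in either pair. The Ldhc share was 4.23% (0 to 10.8) with 5C and 15.3% (8.9 to 21.3) with DMSO, and these ranges overlapped. The ranges of the Pdha2, Slc25a31 and Utp14b shares overlapped as well. In RPG1, none of the 5 members tested was called (3.45% of 9350 genes were lower and 2.16% higher), 1 passed an unadjusted p of 0.05, and DESeq2 called 0.

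In RPG3 cells, Slc25a31 went the opposite way. The DMSO samples held 19.2 and 6.59 CPM, from 84 and 29 UMIs, and the 6 5C samples 31.2 to 57.6 CPM (median 49.5), all higher. This was a 3.66-fold rise with 5C (log2 1.87 ± 0.45, adjusted p = 0.010, edgeR; background 6.36% higher and 9.23% lower), lost without DMSO replicate 2 (1.29, adjusted p = 0.22), which leaves 1 DMSO sample, assumed to vary like the 5C samples. Pdha2 was at 1.15 and 0 CPM against 1.25 to 5.73 CPM (log2 2.47 ± 1.36, adjusted p = 0.245). Of the parents, 6 of 9 were lower with 5C in RPG3 (9.23% of all genes), among them Ldha (−1.90 ± 0.16), Pgk1 (−1.74 ± 0.25) and Slc25a5 (−0.75 ± 0.14). The Slc25a31 share of its pair was 40.1% (5C) and 42.1% (DMSO) in SSC1-4, and 2.93% and 0.591% in RPG3. The difference between the classes in the 5C effect was tested as an interaction. With DMSO, the RPG3 and SSC1-4 sums came from different samples, while 6 5C samples supplied both classes. The fit had no term for the sample and was not repeated with samples left out. The interaction was called for Slc25a31 (log2 2.28 ± 0.32, adjusted p = 1.46e-05, edgeR) and Pdha2 (2.77 ± 0.90, adjusted p = 0.0458), where 4.06% of 13698 genes were higher and 5.69% lower.

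**Figure D5:**
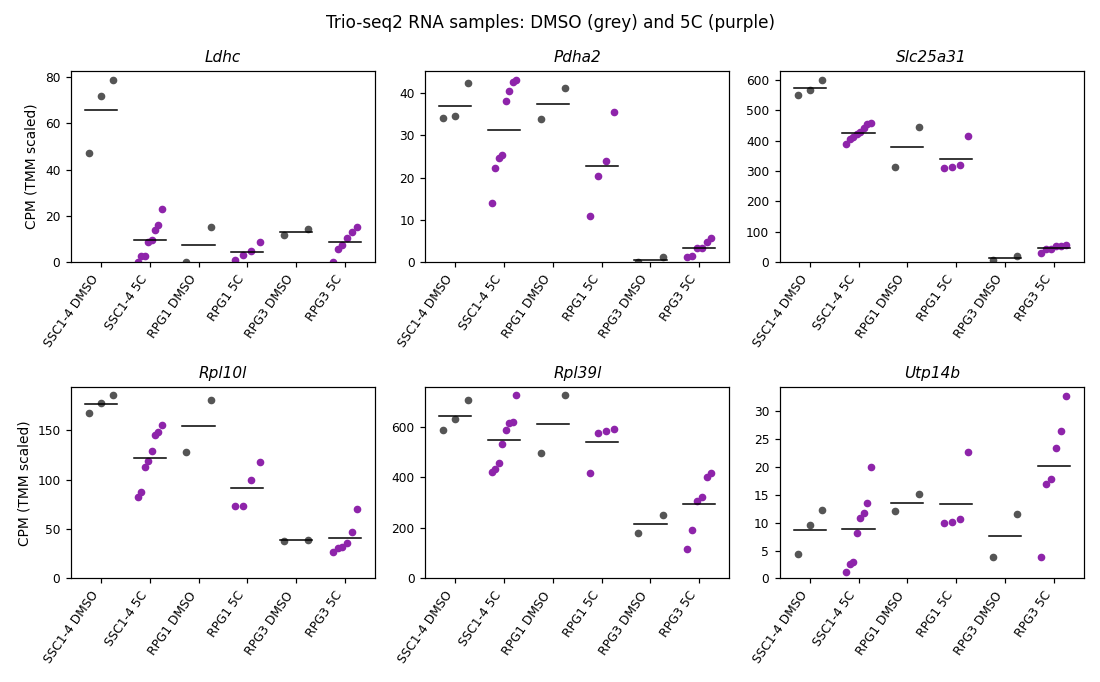
Levels (CPM, TMM-scaled, linear vertical axis) of 6 paralogues in DMSO (grey) and 5C (purple) samples, for SSC1-4, RPG1 and RPG3 cells, 1 point per sample and a line at the mean. Ldhc in SSC1-4 separates the arms (47.0 to 78.7 CPM in DMSO, at most 23.1 CPM in 5C), and Slc25a31 in RPG3 does so in the other direction.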

How the data were processed

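STRT-seq and Trio-seq2 RNA tables hold UMI counts per gene and cell, which the authors deposited after removing cells with few genes or many mitochondrial reads and genes seen in fewer than 3 cells. The submitters' processing notes name STAR 2.7.2b, featureCounts 2.0.0 and the build mm10, and the paper adds UMI-tools for the UMI counts. The notes also name SAMtools 1.11 and Trim Galore 0.6.4, which the paper gives for its bisulfite data. Raw counts were summed per library and deposited cluster (at least 5 cells), scaled by TMM to CPM, and tested in edgeR 4.0.16 (R 4.3.3; filterByExpr, quasi-likelihood test, Benjamini-Hochberg adjustment over all genes). A call means an adjusted p below 0.05. Trio-seq2 classes are the study's scPred labels. Cells of 1 library are not replicates, so libraries or samples are the unit of every test. The script was tested on simulated data.

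The named genes were the members, their parents, Acsl3, the 3 genes most alike to each member, and called genes of 2 lists, of 26 paralogues and 11 partner genes. Members and lists were chosen with earlier results of these data known. Cluster Neural 4 had no library with 5 cells. Depth ranged from 433094 to 34168335 UMIs per SSC1-4 sum and from 1570976 to 17474953 per RPG3 sum. Poisson and Wilson 95% intervals and the limit of 3 counts cover counting error only. The 5C and DMSO replicate numbers did not pair the samples (correlations of same-numbered deviations from −0.04 to 0.07 in SSC1-4 and from −0.59 to 0.47 over all cells). Alternatives were DESeq2 1.42.0, its size factors, no filter, a stricter call, batch terms, blocks, sums per day, 10 cells and left-out libraries. Within-batch fits of the clusters, the fit without a block on shared libraries, the fit without day 0 cells and the interaction were added after the data were seen. Methylation data were not analysed here.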

Additional observations from a re-analysis of the deposited data

Results flagged for a closer look

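Dixon's test was applied to 54 groups of 4 to 10 libraries, and 6 had a library far from the rest. Chance alone flags about 1 group in 20. In RPG3, the day 12 replicate 2 library held Ldhc at 68.5 CPM, against 3.83 to 21.1 CPM in the other 7. In RPG1, Rpl10l reached 224 CPM in day 18 replicate 5 (144 to 174 CPM in the others), and Utp14b reached 41.8 CPM in day 18 replicate 3 (4.27 to 20.2 CPM). Among the 4 RPG1 samples given 5C, Rpl39l was at 418 CPM in replicate 5 (572 to 589 CPM in the others), Slc25a31 at 416 CPM in replicate 6 (310 to 320 CPM), and Utp14b at 22.7 CPM in replicate 5 (9.87 to 10.6 CPM).

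A difference between classes in the effect of 5C was found for Slc25a31, where the log2 change with 5C in RPG3 less that in SSC1-4 was 2.28, and for Pdha2, where it was 2.77. The Pdha2 value rests on 5 UMIs and 0 UMIs in the pair of DMSO samples with RPG3 cells. The part of sampling day in these differences cannot be told apart from that of the compounds.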

How the results depend on the processing

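Over the alternatives, 280 fold changes of called members kept direction and call, 37 kept direction without the call, and 2 reversed, so that Ldhc was at 0.012 and Rpl39l at 0.027 in RPG3 with batch B2 alone. Slc25a31 in RPG3 ranged from −3.31 to −2.68 over 20 settings, Pdha2 from −3.87 to −3.09 and Rpl10l from −1.92 to −1.58.

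The 5 members lower in RPG3 became 3 under the stricter call (adjusted p below 0.01 and a natural-log fold of at least 1) and in batch B2 alone, and 4 with sums per batch and day. Over all genes, the 5549 of 16392 lower became 2852 under the stricter call and 2091 of 15019 in B2 alone. With sums per batch and day they became 4695 of 16573. The 1 member higher, Utp14b, became 0 under the stricter call, in B1 alone, in B2 alone, and on the 2 libraries holding both classes, with or without the library as a replicate block. The 5 lower in RPG2 became 3 on the 2 shared libraries without the block and 4 with it. Over all genes, the 3778 of 17985 lower became 1119 of 13912 without the block and 1586 with it. Without 1 library, 4 to 5 members were lower in RPG2 and in RPG4. Utp14b was called higher in RPG4 (1 member in place of 0) with sums per batch and day, and in Early-pluripotent (1 in place of 0) with at least 10 cells. The 1 member lower in Early-pluripotent became 0 under the stricter call, with batch as a covariate, on shared libraries with or without the block, and without any 1 library (0 to 0). Over all genes, the 201 of 18035 lower became 20 under the stricter call and 31 with batch as a covariate. Pgk1, higher in Neural, was at −0.058 with the library as replicate block and −0.084 without it on the same libraries.

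In the 5C comparisons, the 1 member lower over all cells became 0 with the replicate block (Ldhc −2.23, adjusted p = 0.102, edgeR), the 3 in SSC1-4 became 1 under the stricter call, 2 with the replicate block and 2 to 3 without 1 sample, and the 1 higher in RPG3 became 0 under the stricter call and 0 to 1 without 1 sample. Among all genes, the 950 of 12997 lower over all cells became 5 of 14296 with the replicate block. In SSC1-4, the 1296 of 12260 genes lower with 5C became 305 under the stricter call and 1035 of 12441 with the block. The 2 members lower by day became 1 with DESeq2 size factors, where Slc25a31 lost its call. No fit with a block was possible for RPG4, which shares no library with SSC1-4, or for 5C in RPG1 and RPG3, where 1 number is shared, and the block changed no other count of members. In RPG1, the number of members below every SSC cluster mean went from 2 to 1 without TMM. The RPG3 shares of cells became 95.4, 36.4 and 90.8% without thinning and 93.8, 15.2 and 73.7% at 100000 UMIs for Slc25a31, Pdha2 and Rpl10l. The causes were not tested. RPG2, RPG4 and Early-pluripotent each lie in 1 batch. Low UMI counts limit Pgk2 throughout, Pdha2 in RPG2 to RPG4 and the lines, and Ldhc in RPG2, RPG4 and the lines. Some Trio-seq2 sums of Pdha2 and Ldhc also rest on few UMIs.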
